A study of Mus musculus with 8 samples.

Results

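The non-muscle myosin and actin cytoskeleton genes Myh9, Myh10, Myh14, Myl6, Myo10, Actb, Actg1, Dbn1 and Flna are 9 of the 38924 genes in the deposited tables. They were chosen by symbol, with their levels in these libraries known, for a comparison of depth-scaled expected counts over all 4 groups of mice. The selection used no fold or p threshold. All 9 were found and all 9 passed the filter on low counts. Their levels, fold changes and calls are therefore a description, and no p-value of a level is printed for them.

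The libraries hold mRNA that came down with HA-tagged ribosomes from whole spinal cords, a method known as RiboTag. Tagging of the ribosomal protein Rpl22 depends on Cre, and Chat-Cre directs it to every cholinergic cell type of the cord, motor neurons among them. The study set cords taken after a unilateral crush of the sciatic nerve, which holds the axons of some of these motor neurons, beside cords without a crush, each with negative controls that lack Cre. Expected counts are the estimates of reads per gene that RSEM gives, and the CPM below are those counts over a common library size after TMM scaling, which also corrects for differences in RNA composition.

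Each group held 2 animals. Both Cre crushed mice were Rpl22 +/-; Chat +/-, and they were 18 weeks old (animal 35) and 9 weeks old (animal 52). The no-Cre crushed mice 51 and 58 were Rpl22 +/-; Chat +/+ and 9 weeks old. The Cre uncrushed mice 3 and 10 and the no-Cre uncrushed mice 4 and 6 were 8 weeks old. All carried Rpl22 +/- on a B6.CgxB6.129 background and were Gars+/+. Cords were collected at a time after crush not given in the sources used here, and both sides of the cord were pooled after a crush on one side. Crush cannot be told apart from age, or from a number that the titles of the uncrushed mice share.

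The genotype entry reads Chat +/+ for Cre uncrushed mouse 3 and Chat +/- for no-Cre uncrushed mouse 4, against their titles. Among the uncrushed mice only these 2 entries go against the titles. The titles set the groups. Over 8 motor neuron markers the summed level was 2270 CPM in Cre uncrushed 3 and 186 CPM in no-Cre uncrushed 4, beside 2040 to 2280 CPM in the other Cre libraries and 72.5 to 154 CPM in the other no-Cre libraries. The uncrushed fold changes of the 9 genes and the list counts are also given without these 2 libraries, which leaves 1 animal in each uncrushed group and takes the spread from the crushed groups alone. The Cre libraries held 8215026 to 11522721 expected counts and the no-Cre libraries 4826979 to 6468110. Mitochondrial rRNA took 1.61 to 5.53% of the counts with Cre and 11.5 to 48.2% without. A level at the limit of 3 counts stood between 0.19 and 1.17 CPM. Summed levels of 8 markers each were lower in all 4 Cre libraries than in all 4 no-Cre libraries for oligodendrocytes (720 to 1850 against 4690 to 7910 CPM), astrocytes (420 to 717 against 1880 to 3380 CPM), microglia (19.0 to 27.1 against 91.6 to 171 CPM), endothelial cells (10.1 to 29.4 against 102 to 152 CPM) and mural and smooth muscle cells (30.6 to 44.5 against 209 to 360 CPM). At most 1 marker of a list was at 0 counts in any library. The part of these cells in the results below was not tested. In such material fewer cells of a type and less RNA per cell cannot be told apart.

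As background, actin monomers polymerise into filaments that shape growth cones, dendritic spines and the cell cortex. Non-muscle myosin II, a motor of paired heavy chains with essential and regulatory light chains, pulls on these filaments, and in growing axons it drives the rearward flow of actin. Drebrin and filamin bind along filaments and link them, whereas myosin X carries cargo to the tips of filopodia.

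The comparisons below share libraries with each other. Between Cre and no-Cre precipitates the 9 genes did not move as one set. Actg1 and Myl6 were higher with Cre in crushed and in uncrushed mice, and Myo10 and Flna were lower in both. A gene was called where edgeR's quasi-likelihood test gave a Benjamini-Hochberg adjusted p under 0.05 over all genes tested. Among uncrushed mice the calls took in 8 of the 9, 2 of them higher and 6 lower with Cre, where 42.5% of all 15208 genes were called. In crushed mice 6 of the 9 were called, 4 higher and 2 lower, beside 42.9% of all genes. The median log2 fold change of the 9 genes was -0.94 in uncrushed and 0.43 in crushed mice, against -0.03 and -0.08 over all genes. Nothing is read from these counts, since the genes were chosen on the same values. Without Cre uncrushed 3 and no-Cre uncrushed 4, a setting of 1 animal against 1, 4 of the 9 were called in uncrushed mice, Actg1 higher (2.28) and Myh9 (-1.46), Myo10 (-3.20) and Flna (-2.86) lower.

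**Figure D1:**
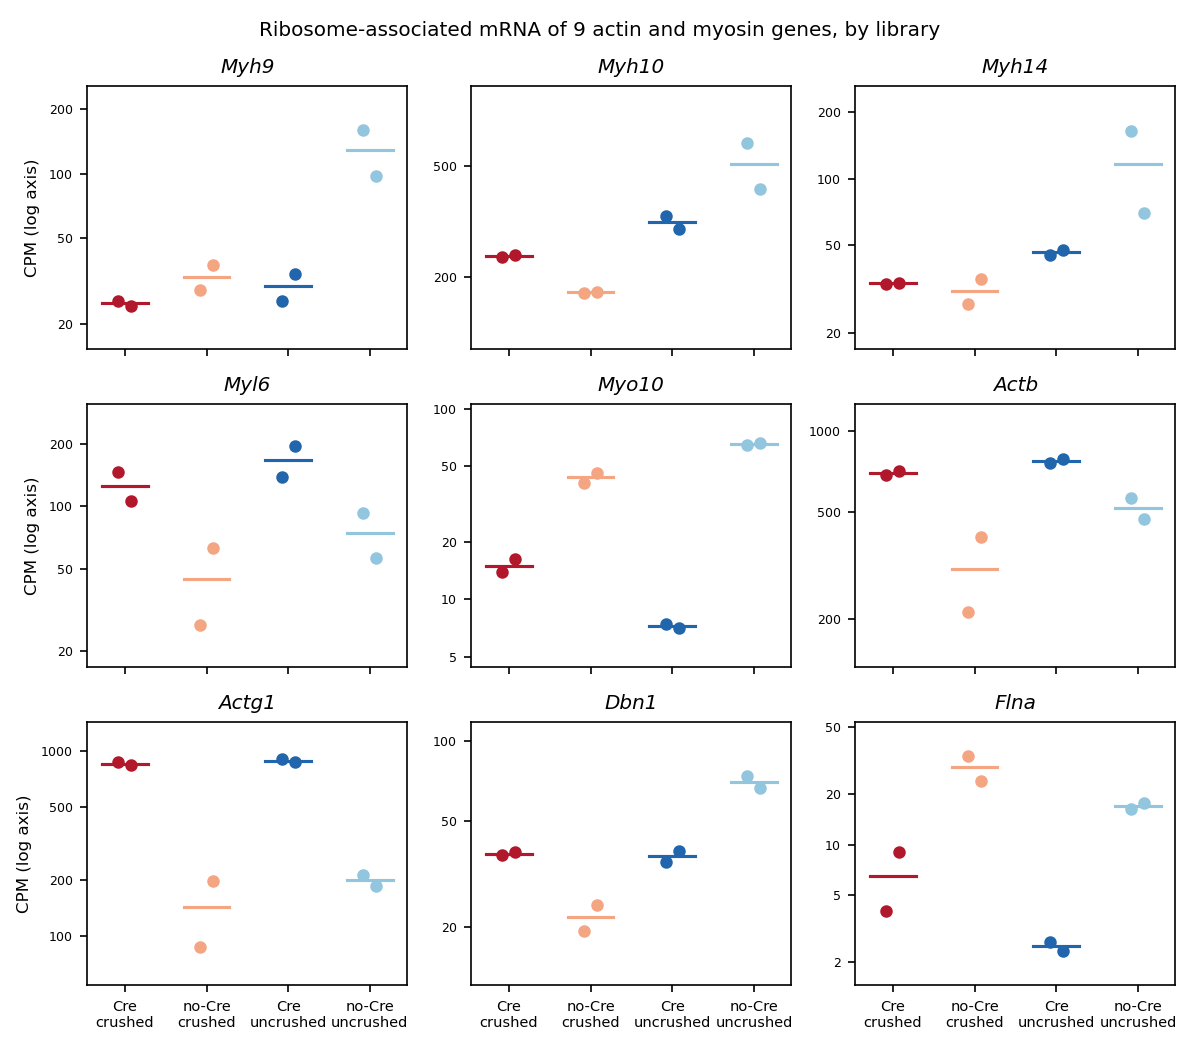
Levels of the 9 genes in each of the 8 libraries, in CPM after TMM scaling on log axes that differ between panels. Points are animals (2 a group) and lines are group means. Actg1 lies between 836 and 901 CPM in the Cre libraries and between 87.0 and 214 CPM in the no-Cre libraries, whereas Myo10 and Flna lie lower with Cre in both states.

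The 3 heavy chains of non-muscle myosin II come first. Myh9 encodes heavy chain IIA, the form typical of blood, vessel and connective tissue cells. It had 25.6 and 24.3 CPM in Cre crushed libraries, against 28.8 and 37.5 CPM in no-Cre crushed libraries. In uncrushed mice it had 25.5 and 34.2 CPM with Cre, against 160 and 97.2 CPM without. Both no-Cre uncrushed libraries stood far above the other 6, and the Cre libraries were below their no-Cre partners in both states. The log2 fold change of Cre over no-Cre was -0.41 ± 0.28 (approximate SE, n = 2 animals a group here and below) in crushed mice, not called, and -2.11 ± 0.29 in uncrushed mice, called lower. The uncrushed value was -1.46 without the 2 libraries whose genotype entries contradict their titles and -1.38 with scaling by library totals alone, called in both.

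Myh10, which encodes heavy chain IIB, the main form of neurons, had 236 and 240 CPM in Cre crushed libraries, against 176 and 177 CPM in no-Cre crushed libraries. It had 332 and 297 CPM in Cre uncrushed libraries, against 604 and 415 CPM in no-Cre uncrushed libraries. In crushed mice the Cre libraries were the higher pair, and in uncrushed mice they were the lower pair. Cre over no-Cre gave a log2 fold change of 0.43 ± 0.24 in crushed mice, not called, and -0.70 ± 0.24 in uncrushed mice, called lower. The second value was 0.04 and not called when libraries were scaled by their totals alone, a setting that moved the median of all genes in that comparison to 0.65, and it was -0.44 and not called without the 2 libraries with a contradictory entry. The call was also lost without any 1 of Cre crushed 35 or 52 (both -0.66), Cre uncrushed 3 (-0.74) or 10 (-0.58) and no-Cre uncrushed 4 (-0.36), and with no filter on low counts (-0.57).

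Myh14 encodes heavy chain IIC, present in many epithelia and in neurons. Its level was 33.2 and 33.8 CPM in Cre crushed libraries and 26.9 and 35.2 CPM in no-Cre crushed libraries. Uncrushed mice had 45.1 and 47.5 CPM with Cre, against 164 and 69.7 CPM without. The crushed groups overlapped, and the uncrushed difference leaned on no-Cre uncrushed 4. As log2 fold changes, Cre over no-Cre stood at 0.11 ± 0.34 in crushed mice, not called, turning to -0.04 without no-Cre crushed 51. In uncrushed mice it was -1.33 ± 0.34, called lower, and -0.55, not called, either without no-Cre uncrushed 4 or with scaling by totals alone. The call was also lost without Cre uncrushed 3 (-1.26), Cre uncrushed 10 (-1.32) or both contradictory libraries (-0.51).

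Heavy chains were next compared with each other inside a library, per transcript length, which does not depend on scaling between libraries. The deposited TPM, which are scaled for transcript length and library total, were used mainly for such comparisons, because they divide each library among all its RNA, mitochondrial rRNA included. Myh10 was the most abundant heavy chain in all 8 libraries. It made up 75.4 and 78.6% of the summed heavy chain TPM in Cre crushed libraries, against 76.3 and 69.3% in no-Cre crushed libraries, and 81.4 and 80.3% in Cre uncrushed libraries, against 60.9 and 68.2% in no-Cre uncrushed libraries. Myh9 made up 9.64 and 9.15% in Cre crushed libraries, against 11.8 and 18.0% in no-Cre crushed libraries. Its share was 5.63 and 7.62% in Cre uncrushed libraries, against 17.3 and 16.9% in no-Cre uncrushed libraries. The Myh9 share was thus lower in every Cre library than in every no-Cre library. Within the Cre libraries it was higher in both crushed ones, where the mean transcript lengths that enter TPM also differed. For Myh9 these were 5942 and 6227 bases in Cre crushed, against 6964 and 7376 bases in Cre uncrushed libraries. For Myh10 they were 6966 and 7151, against 6276 and 6105 bases. Myh9 CPM overlapped between these 2 groups. The Myh10 share separated Cre from no-Cre in uncrushed mice and overlapped in crushed mice.

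Myl6 encodes the essential light chain that clasps these heavy chains. It had 146 and 106 CPM in Cre crushed libraries, against 26.9 and 62.8 CPM in no-Cre crushed libraries. Uncrushed mice gave 138 and 195 CPM with Cre, against 92.4 and 56.1 CPM without. All 4 Cre libraries lay above all 4 no-Cre libraries. On the log2 scale Cre exceeded no-Cre by 1.49 ± 0.39 in crushed and 1.17 ± 0.39 in uncrushed mice, called higher in both. The uncrushed call was lost without both libraries with a contradictory entry (1.84), without Cre uncrushed 10 (0.94) and without no-Cre uncrushed 6 (0.91). The crushed call was lost without Cre crushed 35 (1.28) or no-Cre crushed 51 (1.04), and the value was 2.28 without no-Cre crushed 58. Per length, Myl6 TPM was 6.48 and 4.93 times the sum of the 3 heavy chains in Cre crushed libraries, against 1.32 and 2.86 times in no-Cre crushed libraries. The ratio was 4.15 and 6.26 in Cre uncrushed libraries, against 1.36 and 1.32 in no-Cre uncrushed libraries. In uncrushed mice the light chain was called higher with Cre and the 3 heavy chains lower, of which Myh10 turned to 0.04 with scaling by totals alone.

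Myo10 encodes myosin X, an unconventional myosin of filopodia. Its level was 13.9 and 16.2 CPM in Cre crushed libraries, against 41.0 and 46.3 CPM in no-Cre crushed libraries. It was 7.40 and 7.03 CPM in Cre uncrushed libraries, against 64.7 and 66.5 CPM in no-Cre uncrushed libraries. Replicates lay close together in every group and no groups overlapped. The log2 fold change of Cre over no-Cre was -1.54 ± 0.23 in crushed and -3.18 ± 0.25 in uncrushed mice, called lower in both. Summed markers of oligodendrocytes, astrocytes, microglia and endothelial cells were likewise lower with Cre in both states. In the Cre libraries these sums were higher in both crushed mice than in both uncrushed mice, as Myo10 was. Oligodendrocyte markers summed to 1120 and 1850 CPM in Cre crushed and 720 and 889 CPM in Cre uncrushed libraries, astrocyte markers to 577 and 717 against 420 and 439 CPM, and endothelial markers to 23.2 and 29.4 against 10.1 and 13.3 CPM. Microglial markers summed to 26.5 and 27.1 CPM in Cre crushed, against 19.0 and 21.5 CPM in Cre uncrushed libraries. Mural markers overlapped there, at 41.0 and 39.8 CPM in Cre crushed and 30.6 and 44.5 CPM in Cre uncrushed libraries. Without Cre, Myo10 was lower in both crushed than in both uncrushed mice. Oligodendrocyte markers were lower there too, at 4690 and 6510 CPM in no-Cre crushed, against 7910 and 6910 CPM in no-Cre uncrushed libraries. Endothelial markers were higher in both crushed mice, at 152 and 141 against 125 and 102 CPM, and so were microglial markers. Astrocyte and mural markers overlapped between these groups. The part of these cells in the Myo10 values was not tested.

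The deposited tables also give, for each gene and library, a transcript length averaged over isoforms by their estimated abundance. For Myo10 that length was 5547 and 6483 bases in Cre crushed libraries, against 2047 and 2799 bases in Cre uncrushed libraries. It was 3346 and 3664 bases in no-Cre crushed libraries, against 1656 and 2697 bases in no-Cre uncrushed libraries. Every crushed library was above every uncrushed library. Of the 13 Myo10 transcripts in the tables, all of which are in the GENCODE M21 annotation, the longest 2 have 8125 and 5880 bases there and the other 11 have 2826 or fewer. The mean length was 2.48 times as long in Cre crushed as in Cre uncrushed libraries, where the median over 7385 genes with several transcripts was 1.00, and 6 of these genes (0.0812%) had a ratio at or above that of Myo10. Without Cre the ratio was 1.61, and 117 of the 7385 genes (1.58%) were at or above it. This pattern was picked out after its values were seen and was not tested. It rests on 54 and 76 counts in Cre uncrushed libraries, and on 205 and 219 counts in the Cre crushed ones. Because the length differs, Myo10 TPM was 5.94 and 6.06 in Cre crushed and 7.12 and 3.81 in Cre uncrushed libraries, which overlap, although the CPM do not. Elsewhere the TPM of a gene are not compared between groups.

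**Figure D2:**
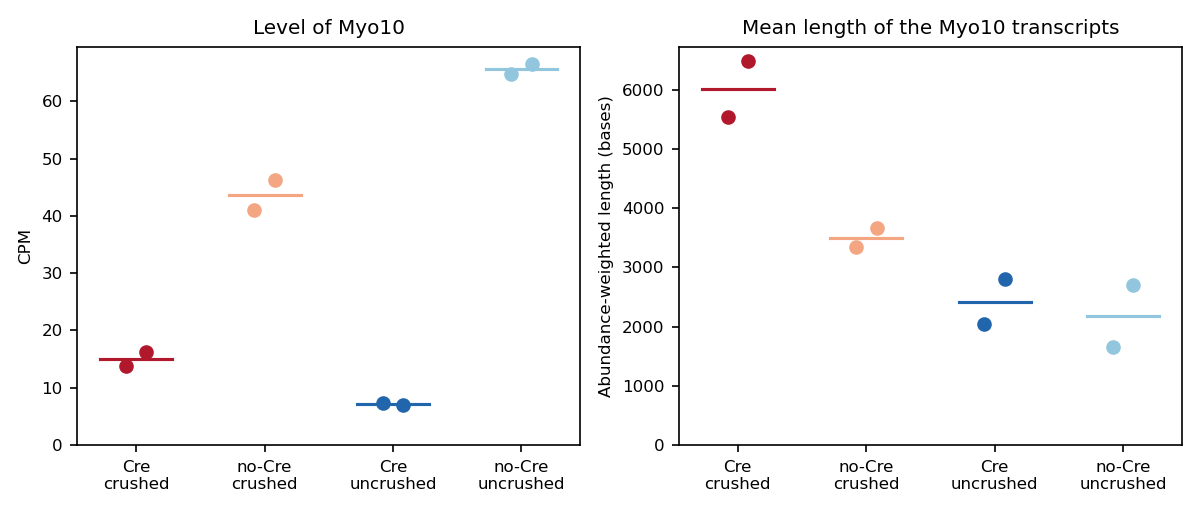
Myo10 in each library: CPM after TMM scaling on the left and abundance-weighted transcript length in bases on the right, with points for animals (2 a group) and lines for group means. CPM separates Cre from no-Cre, with 7.03 to 16.2 CPM against 41.0 to 66.5 CPM, whereas length separates crushed from uncrushed, with 3346 to 6483 bases against 1656 to 2799 bases.

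Over Cre against no-Cre libraries the mean lengths of the 8 genes with more than 1 transcript were tested, since the choice of the genes had not used them. None of the 8 passed an exact two-sided permutation test of 4 against 4 libraries at a Benjamini-Hochberg adjusted p of 0.05, and none had an unadjusted p under 0.05, where the smallest p the design allows is 0.0286. After adjustment over the 8 genes, one that separated alone could not have passed, and each group pools crushed with uncrushed libraries, so that the lack of calls says little. The smallest p was 0.0857 (adjusted 0.686, exact) for Actg1, with 1858 ± 3.11 bases with Cre and 1832 ± 21.3 bases without (SD, n = 4 libraries each). For Myo10 the means were 4219 ± 2130 bases with Cre and 2841 ± 886 bases without (SD, n = 4; exact p = 0.314).

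Actb and Actg1 encode the cytoplasmic β- and γ-actin. Their mRNAs are close relatives, so reads must be divided between them. Over the 1125 coding bases before the stop codon 128 bases differ (88.6% identity), and the longest identical run is 62 bases. The first 60 coding bases, from the GENCODE M21 transcripts, are shown because they hold 9 of the differing bases (capitals) by which the 2 mRNAs can be told apart:
Actb: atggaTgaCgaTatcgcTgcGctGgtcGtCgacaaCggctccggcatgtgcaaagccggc
Actg1: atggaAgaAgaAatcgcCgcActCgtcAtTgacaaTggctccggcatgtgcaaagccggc
How reads from shared stretches, and from processed pseudogenes of Actb, Actg1 and Myl6, were divided by the authors' counting makes the levels of these 3 genes less certain than those of the others.

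The β-actin gene Actb had 689 and 713 CPM in Cre crushed libraries, against 212 and 403 CPM in no-Cre crushed libraries. Its uncrushed levels were 761 and 792 CPM with Cre, against 563 and 474 CPM without. The 4 Cre libraries were above the 4 no-Cre libraries. The log2 fold change was 1.19 ± 0.30 in crushed mice, called higher, and 0.58 ± 0.30 in uncrushed mice, not called. Scaled by totals alone the uncrushed value was 1.29 and called, and it was called with no filter (0.71) and without no-Cre crushed 51 (0.62) or no-Cre crushed 58 (0.63). Without the 2 contradictory libraries it was 0.78 and not called.

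Actg1 had 870 and 836 CPM in Cre crushed libraries, against 87.0 and 199 CPM in no-Cre crushed libraries. Uncrushed mice had 901 and 871 CPM with Cre, against 214 and 185 CPM without. The 4 Cre libraries differed little from each other and were all several times above the no-Cre libraries. In log2 terms Cre exceeded no-Cre by 2.58 ± 0.35 in crushed and 2.15 ± 0.35 in uncrushed mice, or 5.97-fold and 4.43-fold, called higher in both. Without no-Cre crushed 58 the crushed value was 3.34.

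Within a library the γ to β ratio of TPM was 1.31 and 1.21 in Cre crushed libraries, against 0.433 and 0.520 in no-Cre crushed libraries. It was 1.22 and 1.14 in Cre uncrushed libraries, against 0.399 and 0.404 in no-Cre uncrushed libraries. γ-actin mRNA thus exceeded β-actin mRNA in all 4 Cre libraries, and β-actin mRNA exceeded γ-actin mRNA in all 4 no-Cre libraries. The ratio needs no scaling between libraries. Set against Myh10, Actb TPM was 11.4 and 11.9 times as high in Cre crushed libraries, against 8.02 and 9.02 times in Cre uncrushed libraries, which do not overlap. Without Cre it was 3.86 and 7.56 times in crushed, against 3.88 and 4.64 times in uncrushed libraries, which overlap.

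**Figure D3:**
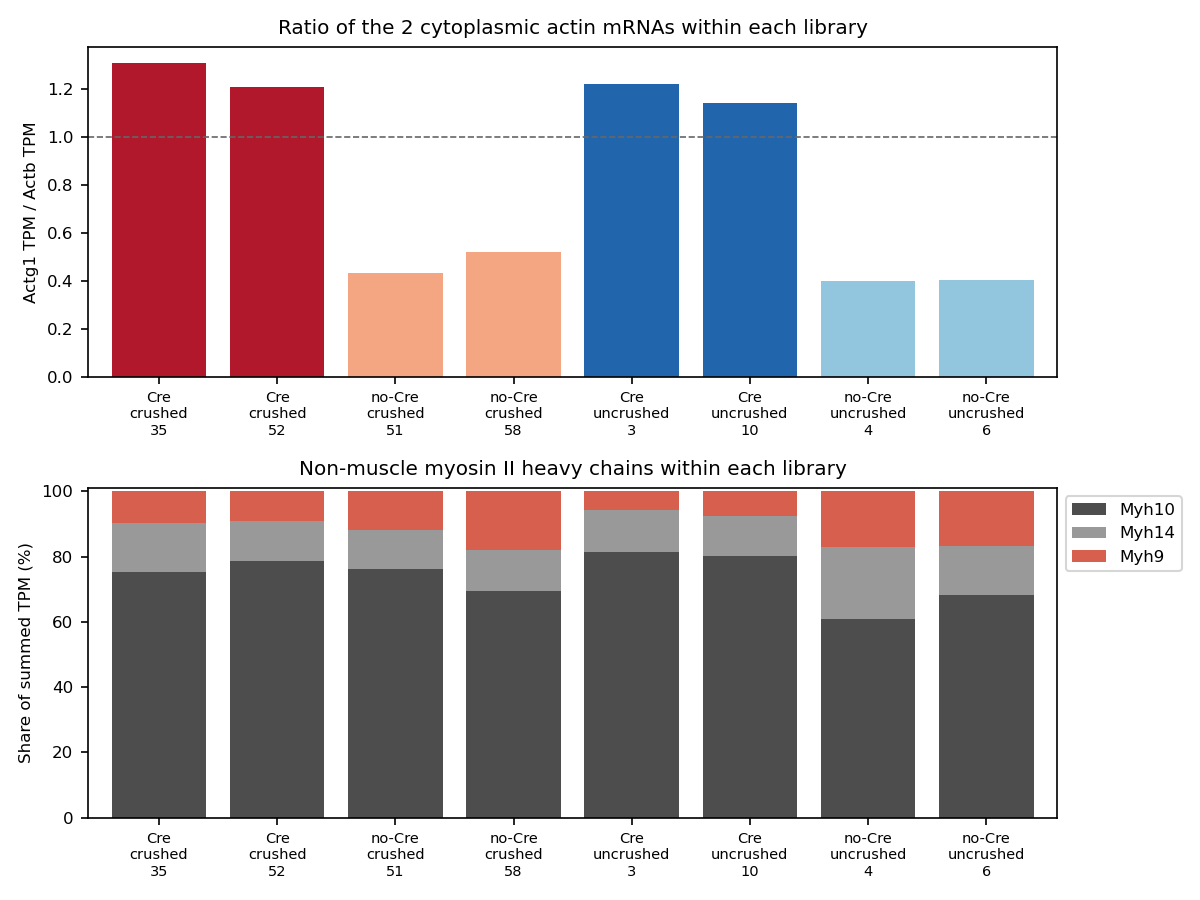
Ratios within each library, in TPM. The upper bars give the Actg1 to Actb ratio, with equality dashed, and lie between 1.14 and 1.31 with Cre and between 0.399 and 0.520 without. The lower bars divide the summed TPM of the 3 heavy chains, where the Myh9 share is 5.63 to 9.64% with Cre and 11.8 to 18.0% without.

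Myl6, Actb and Actg1 followed each other over the 8 libraries, with Pearson r of log2 CPM between 0.916 and 0.959 for the 3 pairs. These correlations are a description of 8 libraries that share 4 group means and one scaling. Actin genes are classic targets of serum response factor (SRF), which binds a site known as the CArG box and is switched on through MRTF partners that sense free actin. In RefSeq promoter sequence (GRCm38.p6), a CArG box on either strand lay within the 250 bases before the start in 2 of the 10 promoters found for 8 of the 9 genes, those of Actg1 and of one start of Myl6. It was present in 482 of 32851 promoters in the whole table (1.47%) and in 8 of 112 promoters (7.14%) of the other actin and myosin genes listed below. Actb was not in the table. These 30 bases around each match are shown, on the gene's strand with the box in capitals, because they hold the only matches among the 10 promoters:
Actg1, chr11:120348566-120348595, minus strand: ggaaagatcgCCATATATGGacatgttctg
Myl6, chr10:128493040-128493069, minus strand: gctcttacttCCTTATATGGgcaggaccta
The box lies 90 to 81 bases before the start of Actg1 and 50 to 41 bases before that start of Myl6. The Myl6 stretch overlaps an exon annotated for that gene in GENCODE M21, and the Actg1 stretch overlaps none of its gene. Binding of SRF was not measured, and its part in these levels was not tested. Nothing is read from the share of promoters with a box, since the 9 genes were chosen with their levels known. Acta2, another actin gene, was called lower with Cre in both states, as given below. Of the SRF partners, Mrtfa was called higher with Cre, at 34.0 and 28.6 CPM against 11.1 and 14.2 CPM in crushed mice (log2 fold change 1.31 ± 0.26, edgeR adjusted p = 0.00281) and 28.9 and 27.2 CPM against 9.75 and 10.7 CPM in uncrushed mice (1.45 ± 0.28, edgeR adjusted p = 0.00227). Neither Srf nor Mrtfb was called in either state.

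Dbn1 encodes drebrin, a neuronal protein that binds along filaments and links them to microtubules in growth cones. It had 37.2 and 38.1 CPM in Cre crushed libraries, against 19.3 and 24.2 CPM in no-Cre crushed libraries. Uncrushed mice gave 35.0 and 38.6 CPM with Cre, against 74.1 and 66.8 CPM without. The level with Cre was alike in crushed and uncrushed mice, and the no-Cre libraries lay below it in crushed mice and above it in uncrushed mice. The log2 fold change was 0.80 ± 0.23 in crushed mice, called higher, and -0.94 ± 0.23 in uncrushed mice, called lower, so that the 2 calls have opposite signs. The crushed call was lost without Cre crushed 35 (0.85), Cre crushed 52 (0.82) or no-Cre crushed 51 (0.67). The uncrushed call was lost without Cre uncrushed 3 (-0.83), without both libraries with a contradictory entry (-0.75), and with scaling by totals alone (-0.24).

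Flna encodes filamin A, which crosslinks filaments into networks and is prominent in vessel walls and migrating cells. It had 4.05 and 9.02 CPM in Cre crushed libraries, against 33.8 and 24.0 CPM in no-Cre crushed libraries. Uncrushed mice gave 2.63 and 2.34 CPM with Cre, against 16.4 and 17.6 CPM without. No groups overlapped. The uncrushed Cre values rest on 27 and 18 counts. The log2 fold change was -2.15 ± 0.39 in crushed and -2.76 ± 0.44 in uncrushed mice, called lower in both, and the crushed value was -2.79 without Cre crushed 52. The calls of Myo10, Actg1 and Flna in both states, of Myh9 in uncrushed mice and of Actb in crushed mice held under every alternative that was run. Endothelial and mural markers were lower with Cre in all libraries, as given above, and their part in the Flna values was not tested.

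Per length, the order of mean TPM in Cre crushed libraries was Actg1 (1180 ± 16.7), Actb (941 ± 39.3), Myl6 (598 ± 125), Myh10 (80.6 ± 0.933), Dbn1 (33.6 ± 1.82), Myh14 (14.2 ± 2.27), Myh9 (9.84 ± 0.537), Myo10 (6.00 ± 0.0849) and Flna (3.4 ± 2.55; SD, n = 2). Among neighbours in this order, the ranges of mean ± SD overlapped for Myo10 and Flna alone. In no-Cre crushed libraries Actb led (299 ± 15.8 TPM), followed by Myl6 (148 ± 13.1) and Actg1 (142 ± 10.9), which did not differ beyond their spread, then Myh10 (59.3 ± 30.0), Myo10 (24.6 ± 11.4), Dbn1 (17.0 ± 3.78), Flna (14.1 ± 12.7), Myh9 (11.2 ± 1.77) and Myh14 (9.75 ± 3.92), and from Myh10 down every neighbouring pair overlapped. Among Cre uncrushed libraries the order was as in Cre crushed ones, with Actg1 (849 ± 162 TPM) and Actb (717 ± 99.8 TPM) within their spread, as were Myh9 (6.79) and Myo10 (5.46 ± 2.34 TPM). In no-Cre uncrushed libraries Actb (214 ± 29.1 TPM), Myl6 (105 ± 9.42 TPM) and Actg1 (85.9 ± 12.5 TPM) again led, the last 2 within their spread, and so were the neighbours among Myo10 (24.4 ± 2.38 TPM), Dbn1 (19.8 ± 3.66 TPM), Myh14 (14.5 ± 4.86 TPM) and Myh9 (13.3 ± 1.16 TPM). Myo10 was at rank 8 in both Cre groups and at rank 5 in both no-Cre groups.

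For the crush itself, no member was called in either comparison, beside 0.0723% of genes called with Cre (11 of 15208) and 0.0149% without Cre (2 of 13394). The counts of members that follow are a description, since the genes were chosen with these values known. With Cre, edgeR gave an unadjusted p under 0.05 for 2 of the 9 genes, Myo10 and Flna, beside 1421 of all 15208, and DESeq2 called 0. Myo10 had 13.9 and 16.2 CPM in crushed, against 7.40 and 7.03 CPM in uncrushed libraries (log2 fold change 1.06 ± 0.24), and Flna had 4.05 and 9.02 CPM, against 2.63 and 2.34 CPM (1.38 ± 0.42). Both crushed values exceeded both uncrushed values for each of the 2 genes. The other 7 had log2 fold changes between -0.47 (Myh14) and 0.03 (Dbn1), a range in which Myh9, Myh10, Myl6, Actb and Actg1 turned positive, at 0.19, 0.03, 0.06, 0.29 and 0.38, with scaling by totals alone, where the median of all genes was 0.47 in place of 0.03. Dbn1 turned to -0.03 without Cre uncrushed 3.

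Without Cre, the unadjusted p was under 0.05 for 4 of the 9 genes, Myh9, Myh10, Myh14 and Dbn1, beside 1023 of all 13394. DESeq2 called these 4 lower among 65 genes in all. Here too nothing is read from the counts, because the choice of the 9 genes knew these levels. The log2 fold changes of crushed over uncrushed libraries for Myh9, Myh10, Myh14 and Dbn1 were -1.93 ± 0.35, -1.50 ± 0.33, -1.89 ± 0.40 and -1.67 ± 0.32. Their size depends on the TMM scaling. With totals alone the median of all genes in this comparison moved well above 0, as given below, and these 4 values stayed negative. The per-library values are those given above, and in each of the 4 genes both crushed values lay below both uncrushed values. In the fit of all 8 libraries 2 of them, Myh9 (-1.96) and Dbn1 (-1.70), were called lower. Without no-Cre crushed 58 edgeR called Myh9 (-2.12), Myh14 (-2.08) and Dbn1 (-1.83), and without no-Cre crushed 51 or no-Cre uncrushed 6 it called Myh9 (-1.78, -2.26) and Myh14 (-1.73, -2.39). Each of these fits holds 3 libraries with 1 residual degree of freedom, so the lone animal is assumed to vary like the other pair. These libraries hold mRNA that came down without a tag, and no-Cre uncrushed 4 and 6 had the lowest scaling factors of the 8 (0.524 and 0.721).

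**Figure D4:**
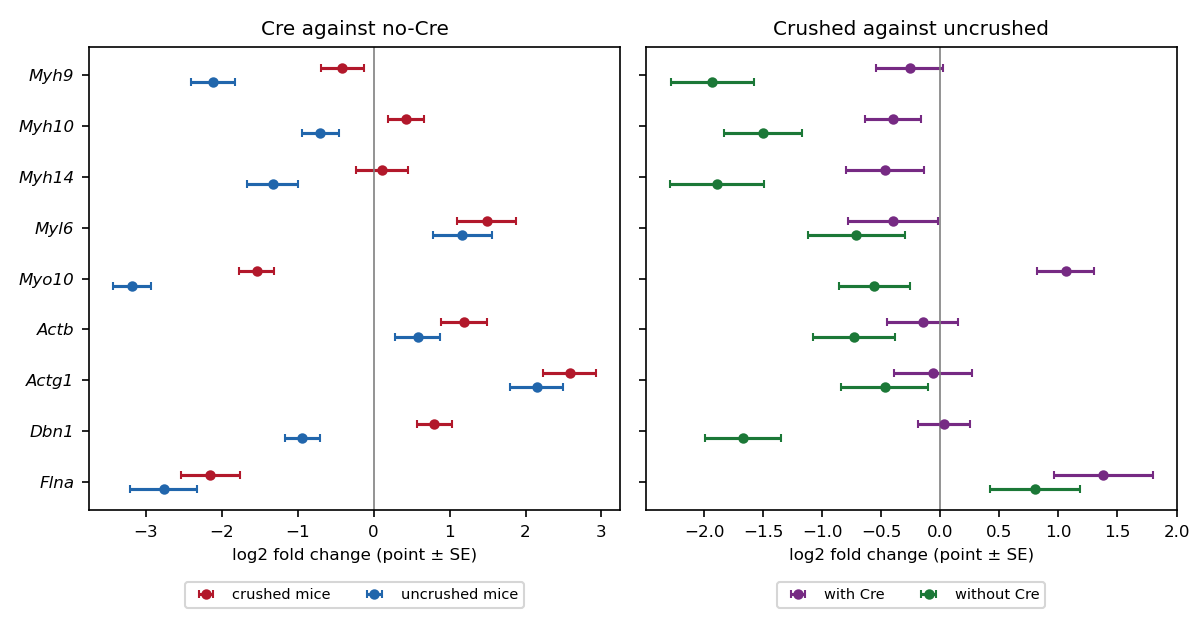
Log2 fold changes of the 9 genes with approximate standard errors as bars (n = 2 animals a group), for Cre over no-Cre on the left and crushed over uncrushed on the right. Without Cre the crush values of Myh9, Myh10, Myh14 and Dbn1 lie between -1.93 and -1.50, and with Cre they lie between -0.47 and 0.03, and when libraries were scaled by totals alone these crush values turned positive for Myh9 (0.19) and Myh10 (0.03), as did the Cre value of Myh10 in uncrushed mice (0.04).

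The difference between the crush effects with and without Cre was fitted as an interaction across all genes. It was called for 0 of the 9 genes by edgeR, 5 of which had an unadjusted p under 0.05 (Myh9, Myh10, Myh14, Myo10 and Dbn1), and for 1, Dbn1, by DESeq2. No gene of the 15208 was called (percent called 0; 905 had an unadjusted p under 0.05; DESeq2 called 14). The interaction, as the log2 fold change of crush with Cre minus that without in the fit of all 8 libraries, was 1.73 ± 0.32 for Dbn1, 1.70 ± 0.40 for Myh9, 1.64 ± 0.33 for Myo10, 1.44 ± 0.48 for Myh14 and 1.13 ± 0.35 for Myh10. Its median over the 9 genes was 1.13, and 0.07 over all genes. Nothing is read from this median or these counts, since the 9 genes were chosen with their values known. With scaling by totals alone the median over all genes changed sign, as given below.

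A further 102 genes of the actin and myosin machinery were grouped by role into 8 lists, of which 99 passed the filter. With Cre, 42 were higher and 21 lower in crushed mice (median log2 fold change 0.40), and 39 were higher and 23 lower in uncrushed mice (median 0.22). Over all genes 21.6% were called higher and 21.3% lower in crushed mice, and 20.6% and 21.9% in uncrushed mice. In uncrushed mice scaling by totals alone gave 49 higher and 14 lower (median 0.94), and 22 of 100 were higher and 16 lower without the 2 libraries with a contradictory entry. Uncrushed values of Arpc2, Cttn, Pls3, Lcp1 and Cald1 are given for the fit of all 8 libraries alone. The other list genes named below as called in uncrushed mice were also called there without these 2 libraries.

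Genes that bind actin monomers or cap and sever filaments were mostly higher with Cre, 13 of 16 in crushed mice (1 lower, median 1.75) and 12 of 16 in uncrushed mice (1 lower, median 1.47; 6 higher and 1 lower without the 2 contradictory libraries). Cfl1, which encodes cofilin 1, a filament severing protein, had 456 and 380 CPM with Cre against 62.2 and 129 CPM without in crushed mice (log2 fold change 2.13 ± 0.33, edgeR adjusted p = 0.000697). It had 566 and 675 CPM against 142 and 171 CPM in uncrushed mice (1.99 ± 0.33, edgeR adjusted p = 0.000977). Pfn2, the neuronal profilin, rose by 2.04 ± 0.27 and 1.92 ± 0.28 (edgeR adjusted p = 0.0003 and 0.000411), and Cap1, a cyclase-associated protein that recycles monomers, by 1.84 ± 0.23 and 1.61 ± 0.24. The lower gene was Gsn, the filament severing and capping protein gelsolin, at -2.02 ± 0.36 in crushed and -2.63 ± 0.37 in uncrushed mice (edgeR adjusted p = 0.00153 and 0.000402), the second being -1.72 without the 2 contradictory libraries.

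Unconventional myosins other than Myo10 were called only in the lower direction, 7 of 14 in crushed mice (median -1.35) and 10 of 14 in uncrushed mice (median -2.15). In uncrushed mice the count was 6 without the 2 contradictory libraries and 5 with scaling by totals alone, with 0 higher each time. Myo6, a motor that walks towards the minus end of filaments, had 19.1 and 33.3 CPM with Cre against 164 and 126 CPM without in crushed mice (-2.47 ± 0.30, edgeR adjusted p = 0.000194). In uncrushed mice it had 13.0 and 15.0 CPM against 211 and 160 CPM (-3.73 ± 0.32, edgeR adjusted p = 4.55e-05). Myo1e, a single-headed myosin of membranes, stood at -2.45 ± 0.34 in crushed and -3.59 ± 0.38 in uncrushed mice, called lower in both. Myo5a, an organelle carrier of neurons, was called lower in uncrushed mice (-1.11 ± 0.24; not called with totals alone, -0.41, or without Cre uncrushed 10, -0.93) and stood at -0.08 ± 0.23 in crushed mice, a value that was 0.10 with scaling by totals alone.

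Of the other myosin II subunits, the regulatory light chain Myl12b was higher with Cre, at 381 and 266 CPM against 53.3 and 75.6 CPM in crushed mice (2.33 ± 0.39, edgeR adjusted p = 0.00106). In uncrushed mice it had 289 and 260 CPM against 37.4 and 98.8 CPM (2.00 ± 0.39, edgeR adjusted p = 0.00237). Myl6b, the near relative of Myl6, was called higher in crushed mice (3.01 ± 0.58) and stood at 0.73 ± 0.55, not called, in uncrushed mice, a difference that was itself not called (2.28 ± 0.79, edgeR adjusted p = 0.83). Myl9, the regulatory light chain of smooth muscle, was called lower in crushed mice (-2.80 ± 0.89). Among actin isoforms, Acta2 of smooth muscle was called lower with Cre in both states, at 1.01 CPM or less in the 4 Cre libraries and 4.29 to 8.28 CPM in the no-Cre libraries. The Acta2 level in Cre uncrushed 10, 0.13 CPM, lay below the limit of 3 counts there (0.39 CPM). Over all 8 libraries Acta2 had 143 counts and Myl9 113. The crushed calls of Myl9 and Acta2 were each lost under 5 alternatives.

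Among genes of filament nucleation 11 of 21 were higher and 4 lower in each state, and 6 were higher and 3 lower in uncrushed mice without the 2 contradictory libraries. With totals alone 12 were higher and 2 lower in uncrushed mice. Wasl, which encodes N-WASP, an activator of the Arp2/3 complex, was called higher in uncrushed mice (1.44 ± 0.22, edgeR adjusted p = 0.000515), and so was Wasf1, the neuronal WAVE protein (1.40 ± 0.23). The Arp2/3 subunit Arpc2 led in crushed mice (2.02 ± 0.24, edgeR adjusted p = 0.000178), with cortactin, Cttn (1.44 ± 0.22). These 2 genes were called higher in uncrushed mice as well (Arpc2 1.29 ± 0.24, Cttn 1.29 ± 0.22). Fmnl2, a formin, was lower at -1.76 ± 0.22 and -2.61 ± 0.23, and Wasf2, a widely expressed WAVE protein, at -1.81 ± 0.28 and -2.60 ± 0.30, in crushed and uncrushed mice.

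Crosslinking and side-binding genes were split. In crushed mice 10 of 26 were higher and 4 lower, and in uncrushed mice 10 were higher and 5 lower (7 and 3 of 27 without the 2 contradictory libraries). With totals alone the lower ones numbered 2 in crushed and 3 in uncrushed mice. Pls3, plastin 3, a bundling protein, had 230 and 196 CPM with Cre against 39.8 and 38.7 CPM without in crushed mice (2.44 ± 0.24, edgeR adjusted p = 9.83e-05). Lcp1, plastin 2, best known from leukocytes, was higher in crushed mice (2.80 ± 0.29, edgeR adjusted p = 0.000107), at 285 and 239 CPM against 36.9 and 38.3 CPM. Summed microglial markers were lower with Cre, and the part of any cell type in the Lcp1 values was not tested. Pls3 and Lcp1 were called higher in uncrushed mice too (2.18 ± 0.24 and 2.32 ± 0.29). Msn, moesin, which ties filaments to the membrane, was higher in uncrushed mice (2.51 ± 0.28, edgeR adjusted p = 0.000118). It was also called higher in crushed mice (2.62 ± 0.28). Fscn1, the filopodial bundler fascin, was lower in uncrushed mice (-2.40 ± 0.35), and Cald1, caldesmon, was lower in crushed mice (-1.92 ± 0.31). Fscn1 was called lower in crushed mice too (-1.06 ± 0.34), as Cald1 was in uncrushed mice (-2.02 ± 0.32).

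Regulators of myosin II gave 5 higher and 2 lower of 13 in crushed mice and 4 higher and 2 lower in uncrushed mice. Leaving out any 1 of Cre crushed 35, Cre crushed 52 and no-Cre crushed 51 took the higher ones to 0 or 1, and leaving out Cre uncrushed 3, Cre uncrushed 10 or no-Cre uncrushed 4 took them to 1. In uncrushed mice the higher ones numbered 9 with totals alone, 6 without no-Cre crushed 51 and 7 without no-Cre crushed 58. The lower 2 were Rock1, a kinase that activates myosin II (-2.47 ± 0.33 and -2.74 ± 0.35, edgeR adjusted p = 0.000287 and 0.000216), and Mylk, myosin light chain kinase (-2.18 ± 0.40 and -2.55 ± 0.43). Rock2, also in this list, was called in neither state (0.40 ± 0.25 in crushed and 0.18 ± 0.26 in uncrushed mice). Limk2, a kinase that phosphorylates cofilin, was called higher in uncrushed mice (1.19 ± 0.28, and 1.79 without the 2 contradictory libraries). It was called higher in crushed mice too (0.90 ± 0.27).

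**Figure D5:**
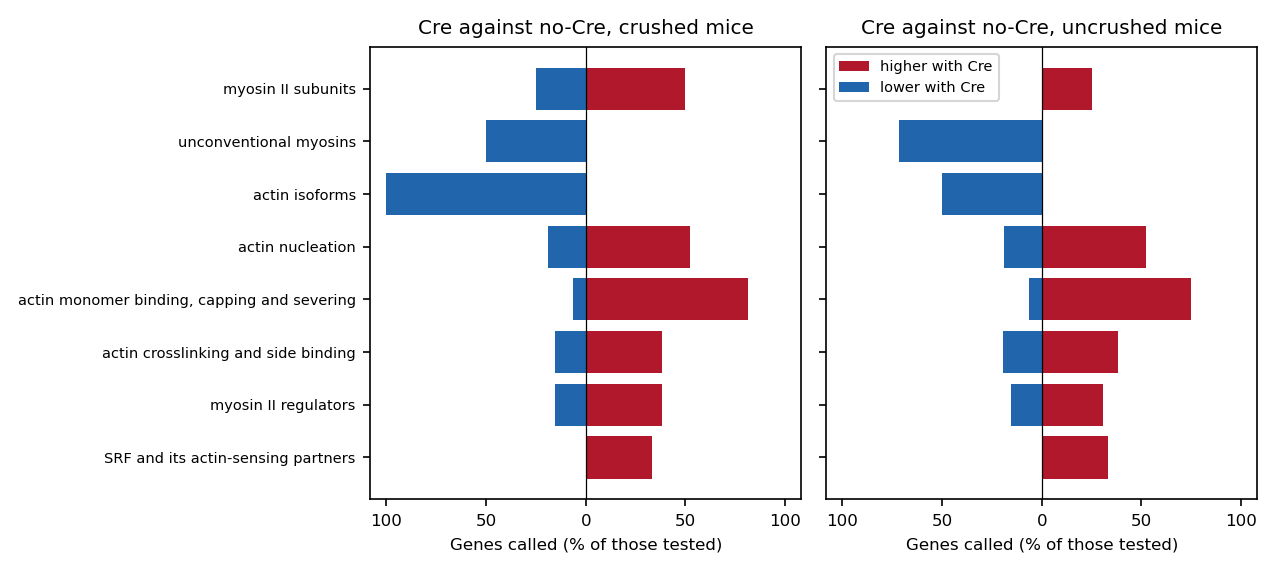
Share of the tested genes of each list, without the 9 genes, that were called higher (to the right) or lower (to the left) with Cre, in crushed mice on the left and uncrushed mice on the right. Monomer binding, capping and severing genes lie to the right, with 13 and 12 of 16 higher, and unconventional myosins to the left, with 7 and 10 of 14 lower, where scaling by totals alone left 7 and 5 lower and none higher.

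After crush none of these 99 genes was called with Cre (edgeR; 18 had an unadjusted p under 0.05, beside 1421 of all 15208, and DESeq2 called 2). Without Cre none of 98 was called (8 had an unadjusted p under 0.05, beside 1023 of all 13394, and DESeq2 called 2). Among the abundant ones, Sptbn1, βII-spectrin of the submembrane skeleton, had 835 and 645 CPM in Cre crushed libraries, against 349 and 329 CPM in Cre uncrushed libraries. That is a log2 fold change of 1.13 ± 0.25, with an edgeR adjusted p of 0.163. Sptan1, the next most abundant gene of the same list, went the other way. It had 522 and 313 CPM in Cre crushed, against 537 and 528 CPM in Cre uncrushed libraries (-0.35 ± 0.27, not called).

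The genes whose log2 CPM followed each member most closely over the 8 libraries were sought among 9671 named genes with a mean of at least 5 CPM, which again describes libraries that share group means and scaling. Closest to Actg1 was Prph, the motor neuron intermediate filament peripherin (r = 0.997), with 497 and 451 CPM in Cre crushed, 17.5 and 54.0 CPM in no-Cre crushed, 564 and 557 CPM in Cre uncrushed and 83.8 and 56.1 CPM in no-Cre uncrushed libraries. Next came Ssb, also with an r of 0.997, at 120 to 141 CPM in the Cre and 41.5 to 67.5 CPM in the no-Cre libraries. Myl6 was closest to Ndufb9, a subunit of mitochondrial complex I (0.996), and Actb to Minos1 (0.996). Nearest to Myo10 was Gstm7, a glutathione transferase (0.997), and nearest to Flna was Speer4b (0.998). Among the heavy chains, Myh9 was nearest to Myt1l, a neuronal transcription factor (0.984), Myh10 to Commd10 (0.968) and Myh14 to Safb (0.971), and Dbn1 was nearest to Drap1 (0.964). Between members, r ranged from 0.770 to 0.940 among Myh9, Myh10, Myh14 and Dbn1, and it was 0.913 between Myo10 and Flna and -0.922 between Flna and Actg1.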

How the data were processed

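Ribosome-associated mRNA of 8 mouse spinal cords was analysed from the gene tables the authors deposited. The authors' expected counts and TPM came from Bowtie2 2.2.0 and RSEM 1.2.12, per the submitters' processing notes, and the deposited abundance-weighted gene lengths (bases) stand beside them. The tables were made with a genome build and gene models not given in the sources used here, and no coordinates are taken from them. Symbols were found for 37607 of 38924 Ensembl identifiers (96.6%). Expected counts were rounded, filtered with filterByExpr (minimum count 10, minimum total 15; 15208 genes kept) and scaled by TMM. edgeR 4.0.16 in R 4.3.3 fitted 1 mean per group to all 8 libraries (4 residual degrees of freedom). For crush without Cre it used the 4 no-Cre libraries alone (13394 genes, 2 residual degrees of freedom), since an earlier simulation had given many false calls for this comparison in the fit of all 8. Tests were two-sided. Standard errors are the absolute log2 fold change over the square root of F. With 2 animals a group, p-values measure the spread between separately numbered animals. Counting limits (3 counts) cover counting error only.

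The 9 genes and the lists were chosen with earlier results of these data known. Beside the 9 genes, the text names from each list the 2 genes with the highest mean CPM and, per comparison, in each direction the called pair with the lowest p. Some genes that were not called are left out, and Srf and Rock2 are named outside the rule. One gene that this rule names is not reported here. It names for each member the genes most alike by Pearson r (log2 CPM, prior count 2). Motifs were searched in RefSeq promoters (GRCm38.p6), whose coordinates are printed. Code was tested on simulated data. Alternatives were DESeq2 1.42.0, RLE size factors, totals alone, no filter, other sets of libraries, and leaving out each library.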

Additional observations from a re-analysis of the deposited data

How the results depend on the processing

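No paired analysis was possible because the groups share no animal numbers. Of 585 values of the 9 genes under alternatives, 519 kept their direction and side of the threshold, 24 gained and 23 lost a call, and 19 changed sign. Causes were not tested.

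With scaling by totals alone the uncrushed calls split into 4753 higher and 1463 lower, against 3137 and 3331 with TMM, and the crushed calls into 2837 and 1922, against 3286 and 3235. The median of all genes then moved to 0.65 for Cre against no-Cre in uncrushed mice, 0.47 for crush with Cre, 0.93 for crush without Cre and -0.46 for the interaction. Sign changes under it were Myh10 (0.04) in uncrushed mice, Myh9 (0.19), Myh10 (0.03), Myl6 (0.06), Actb (0.29) and Actg1 (0.38) for crush with Cre, Myl6 (0.17), Myo10 (0.37), Actb (0.14) and Actg1 (0.37) for crush without Cre, and Myl6 (-0.11) for the interaction. Others were Myh14 in crushed mice (-0.04 without no-Cre crushed 51), Dbn1 for crush with Cre (-0.03 without Cre uncrushed 3, and -0.03 without both contradictory libraries) and, for the interaction, Myl6 (-0.30 without both, and -0.17 to 1.05 leaving out 1 library, negative without no-Cre crushed 51 or no-Cre uncrushed 4), Actg1 (-0.05 to 1.14, negative without no-Cre crushed 51) and Flna (-0.06 to 1.08, negative without Cre crushed 52).

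Among the named list genes, Myo5a in crushed mice turned to 0.10 with totals alone, 0.03 with no filter and 0.11 without no-Cre crushed 58. These alternatives for list genes were added after seeing the data.

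Cre against no-Cre in uncrushed mice had 6468 calls, 3299 without both contradictory libraries and 3802 to 6512 leaving out 1 library; of the 9 genes 8 were called, 4 and 5 to 9. In crushed mice the 6521 calls ranged from 2733 (without Cre crushed 35) to 7392, and the members' 6 from 4 to 6. Crush with Cre had 11 calls, 281 with no filter, 131 by DESeq2, 126 with only the groups compared, 5 without both, and 7 to 15 leaving out 1. Crush without Cre had 2 calls, 96 by totals alone, 121 with no filter, 65 by DESeq2, 11 with all 8 libraries, 31 without both, and 31 to 128 leaving out 1. Of the 9 genes it called 0, 4 with no filter, 4 by DESeq2, 2 with all 8 libraries, and 0 to 3 leaving out 1. The interaction had 0 calls, 87 with no filter and 14 by DESeq2, of which 2 and 1 were among the 9 genes. The length test with 1 library left out (3 against 4) cannot reach 0.05.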
